A study of Mus musculus with 6 samples.

Results

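The mitochondrial ribosomal protein genes of mouse alveolar macrophages were described here across 3 culture conditions. Members were the genes whose symbol begins with Mrpl or Mrps followed by a digit, that are not named as pseudogenes, and that had at least 60 counts over the 6 libraries together. Of the 16840 genes measured, 76 met this rule, 47 of them named Mrpl for the large subunit and 29 named Mrps for the small subunit. RNA sequencing had been carried out on cultured wild-type cells at day 2, in 3 groups of 2 libraries. The groups were GM-CSF with DON, GM-CSF, and no GM-CSF. GM-CSF (granulocyte-macrophage colony-stimulating factor) is the cytokine on which alveolar macrophages depend for their development and upkeep, and DON is a treatment that the labels give only by these letters. The labels call the cells a line, AM, and do not say whether they were primary cells or an established line, nor whether the 2 replicates of a group came from separate cultures or animals.

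The mitochondrial ribosome translates the few mRNAs of the mitochondrial genome, all of which encode membrane subunits of the respiratory chain and of the ATP synthase. Its rRNAs come from the mitochondrial genome, while every one of its proteins is encoded in the nucleus, translated in the cytosol and imported. About the members' roles, the small subunit holds the mRNA and the decoding site, and the large subunit joins amino acids and passes the new chain through an exit tunnel to the inner membrane. Some of its proteins have bacterial counterparts, and others exist in mitochondrial ribosomes and not in bacterial ones. Transcription of these nuclear genes is known to use NRF1 and the ETS-family factor GABP, whose DNA-binding subunit is encoded by Gabpa.

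Because the members share a ribosome but not a chromosomal location, their promoters are shown first. The 76 genes lay on 17 chromosomes of the build GRCm38 (GENCODE annotation). Promoters from 250 bases before to 50 bases after the start were taken from RefSeq (GRCm38.p6), which matched 67 of the 76. The motif letters searched, on both strands, were GCGCA, any base and GCGC for NRF1, CCGGAAG for ETS factors, AANATGGCG for YY1 and CACGTG for the E-box bound by MYC-type factors. No match of 1 motif overlapped a match of another in these 67 windows. The ETS letters were in 24 of 67 members' promoters (35.8%), against 20.6% of the 8536 tested genes with a promoter and 9.9% of all 27025. For NRF1 the count was 12 (17.9%), against 11.8% of tested genes and 5.2% of all. The YY1 letters were in 10 (14.9%), against 6.2% of tested genes and 2.8% of all. The E-box was in 5 (7.5%), against 12.1% of tested genes and 8.1% of all. A match describes letters in a window and is not a binding site.

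The 130 bases before the start are printed for 6 members that the results below turn on, with the matched letters in capitals, 5′ to 3′ on the gene's own strand. Mrpl12, Mrps21 and Mrpl45 carry the NRF1 letters, Mrpl43 and Mrpl52 the ETS letters, and Mrpl20 the E-box. Where the GENCODE start lies upstream of the RefSeq start, the window ends before the GENCODE start, which places its last base 25 bases before the RefSeq start in Mrpl12 and 6 bases before it in Mrps21.
Mrpl12 (chr11:120484483-120484612, plus strand): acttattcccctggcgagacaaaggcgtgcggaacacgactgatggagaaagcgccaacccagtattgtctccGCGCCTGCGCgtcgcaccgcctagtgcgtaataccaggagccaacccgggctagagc
Mrps21 (chr3:95871520-95871649, minus strand): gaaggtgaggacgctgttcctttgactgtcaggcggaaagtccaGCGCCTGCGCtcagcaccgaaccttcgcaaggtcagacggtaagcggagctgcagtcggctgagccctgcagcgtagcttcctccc
Mrpl45 (chr11:97315586-97315715, plus strand): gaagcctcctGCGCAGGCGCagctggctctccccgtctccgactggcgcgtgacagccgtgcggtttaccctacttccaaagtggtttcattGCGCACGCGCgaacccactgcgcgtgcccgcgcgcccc
Mrpl43 (chr19:45006443-45006572, minus strand): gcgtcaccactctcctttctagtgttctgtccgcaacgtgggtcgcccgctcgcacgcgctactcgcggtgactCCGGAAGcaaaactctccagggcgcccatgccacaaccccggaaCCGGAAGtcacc
Mrpl52 (chr14:54426779-54426908, plus strand): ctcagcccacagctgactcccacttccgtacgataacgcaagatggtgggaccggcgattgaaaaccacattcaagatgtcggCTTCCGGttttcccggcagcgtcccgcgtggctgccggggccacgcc
Mrpl20 (chr4:155802748-155802877, plus strand): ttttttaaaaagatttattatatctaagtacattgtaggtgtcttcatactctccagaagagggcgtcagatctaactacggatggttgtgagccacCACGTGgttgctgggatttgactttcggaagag
Members printed with the same letters did not all have the same calls. Of those printed with the NRF1 letters, Mrpl12 was called higher with GM-CSF while Mrps21 and Mrpl45 were not. Of those printed with the ETS letters, Mrpl43 was called higher with DON against GM-CSF alone while Mrpl52 was not called. No difference between these members was tested, nor any relation between the letters and the changes.

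A divergent protein-coding neighbour was counted where it starts on the opposite strand, upstream of the member's start and within 1000 bases of it. Such a neighbour was annotated for 17 of the 76 members (22.4%), against 6.8% of 22028 protein-coding genes, expressed or not. Opposite genes that overlap at their starts, such as Mrpl46 and Mrps11, were not counted. The median distance was 83 bases. Mrpl32 faces Psma2, a proteasome subunit gene, at 75 bases, Mrpl51 faces Ncapd2, a condensin subunit gene, at 100 bases, and Mrps5 faces Zfp661 at 128 bases.

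Levels between genes were compared in FPKM, the authors' deposited values per gene length. The member levels ran over a 26.5-fold range, and their median was 33.5 FPKM over the 6 libraries, against 3.91 FPKM for all 16840 genes. The highest was Mrps21, the counterpart of bacterial S21 in the small subunit, with 135 ± 5.53 FPKM with GM-CSF and DON, 165 ± 2.62 FPKM with GM-CSF and 156 ± 6.12 FPKM without GM-CSF (SD, n = 2 each). Next came Mrpl52, a mitochondria-specific protein of the large subunit, with 118 ± 5.58 FPKM with GM-CSF and DON, 123 ± 3.61 FPKM with GM-CSF and 141 ± 5.38 FPKM without GM-CSF. Over the 6 libraries Mrpl42 averaged 103 FPKM, Mrps36 88.9 FPKM and Mrpl33 80.1 FPKM. At the low end, Mrpl23 averaged 5.74 FPKM, Mrpl35 7.04, Mrps31 8.63, Mrpl1 9.71 and Mrpl47 12.7. Apart from Mrps36, taken up below, these genes encode proteins of 1 particle, and their FPKM were not at 1 level. FPKM also depends on the length assigned to each gene. Mrpl52 and Mrpl35 had 5562 and 4734 counts over the 6 libraries, yet averaged 128 and 7.04 FPKM. The part of gene length in the range between genes was not tested. The values of Mrpl23 are uncertain, as described below, and without Mrpl23 the members ran over a 21.6-fold range. Mrpl35 separated the groups at the low end, with 7.31 ± 0.00169 FPKM with GM-CSF and DON, 8.49 ± 0.0293 FPKM with GM-CSF and 5.32 ± 0.425 FPKM without GM-CSF.

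**Figure D1:**
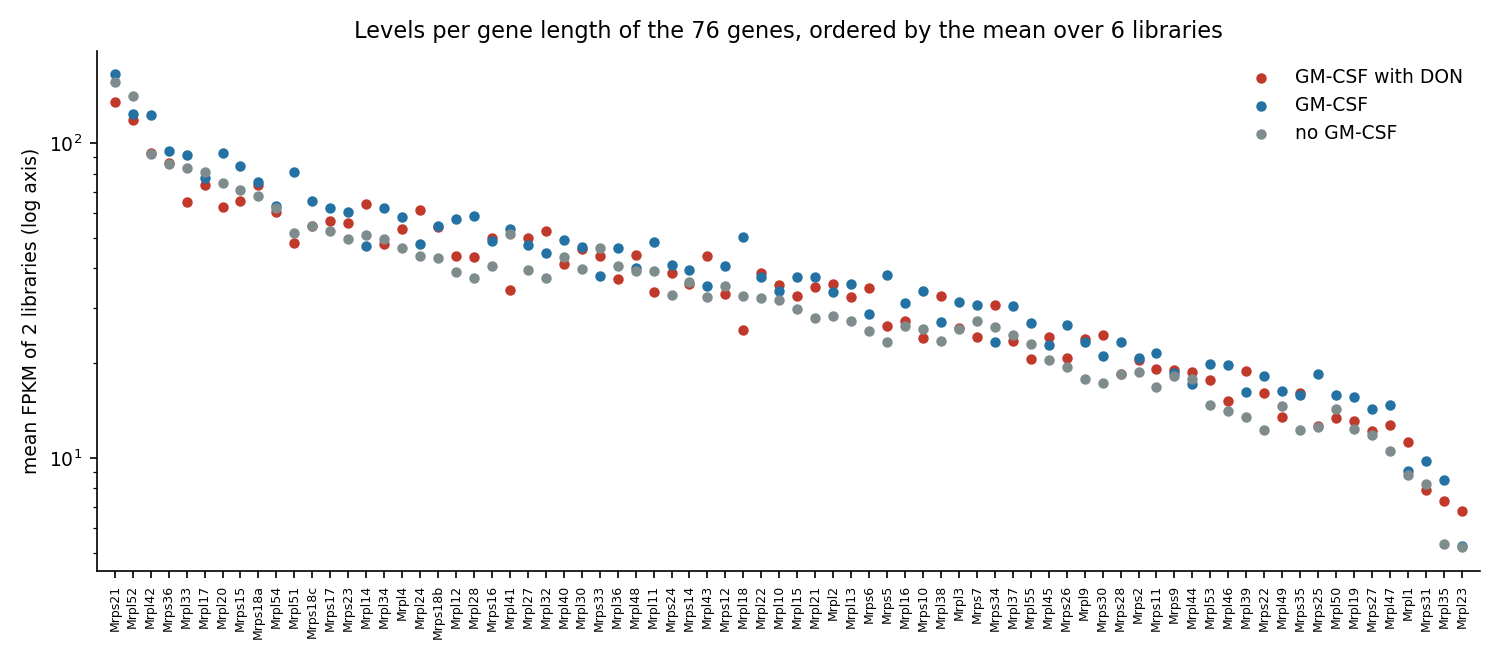
Mean FPKM of 2 libraries per group (vertical log axis) for each of the 76 genes (horizontal axis), ordered by the mean over 6 libraries. Levels run from 5.74 FPKM for Mrpl23 to 152 FPKM for Mrps21, and for most genes the 3 group means lie close together on this scale.

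Total counts per library were between 28321986 and 35196387, and all 76 members were among the 12340 genes that passed the filter on low counts. All 14 listed markers of alveolar macrophages passed the filter, and they summed to 35086 and 33412 CPM with GM-CSF and DON, 28986 and 28962 CPM with GM-CSF, and 46119 and 45507 CPM without GM-CSF. Of these 14, 4 were called higher and 8 lower with GM-CSF, and 8 higher and 5 lower with DON against GM-CSF. Over all genes tested, 27.5% were called higher and 29.3% lower with GM-CSF, and 28.8% in each direction with DON against GM-CSF. A single marker can hold most of such a sum. In no GM-CSF replicate 1, the highest of the 14 had 32571.9 of their 38709.5 summed FPKM. Siglec5 was at 467 and 481 CPM with GM-CSF and DON, 388 and 400 CPM with GM-CSF, and 511 and 476 CPM without GM-CSF, whereas Car4 had 325 and 303 CPM with GM-CSF and DON, 661 and 652 CPM with GM-CSF, and 0.215 and 0.238 CPM without GM-CSF. CPM here and below are counts relative to library sizes scaled by the TMM method. Markers of other cells differed between groups. The 4 of 6 granulocyte markers in the table summed to 71.5 and 74.0 CPM with GM-CSF and DON, 61.3 and 63.4 CPM with GM-CSF, and 111 and 115 CPM without GM-CSF. These 4 did not move together, since 3 were called lower and 1 higher with GM-CSF against no GM-CSF. With DON against GM-CSF, 2 were higher and 0 lower. The 6 dendritic cell markers summed to 25.4 and 25.5 CPM with GM-CSF and DON, 28.1 and 27.7 CPM with GM-CSF, and 8.92 and 8.65 CPM without GM-CSF. The 9 lung epithelium markers summed to 105 and 109 CPM with GM-CSF and DON, 165 and 171 CPM with GM-CSF, and 116 and 103 CPM without GM-CSF, with the surfactant gene Sftpc at 0 or 1 count in every library. Of the 6 lung epithelium markers tested, 1 was called higher and 3 lower with GM-CSF against no GM-CSF. Their median log2 fold change there was -0.91, although their sum was higher. With DON against GM-CSF, 1 was higher and 1 lower. Lymphocyte markers (4 of 8 in the table) and the 6 markers of stroma and endothelium summed to no more than 1.88 CPM in any library, and the stromal collagen gene Col1a1 had 0 counts in both libraries with GM-CSF and DON. The part of these cells in the results below was not tested.

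All members together took the largest share of counts with GM-CSF alone. They held 0.227% and 0.219% of all counts with GM-CSF and DON, 0.252% and 0.249% with GM-CSF, and 0.190% and 0.198% without GM-CSF. In this share the groups did not overlap, and GM-CSF with DON lay between the others. In the summed FPKM of the members, GM-CSF with DON (2947 and 2826) and no GM-CSF (2737 and 2831) overlapped. In bulk RNA, a smaller share of cells that express a gene and less of its RNA per cell cannot be told apart. The mRNAs encoded in the mitochondrial genome, which this ribosome translates, had another order. Their 12 measured genes held 2.596% and 2.47% of counts with GM-CSF and DON, 2.62% and 2.22% with GM-CSF, and 3.28% and 3.15% without GM-CSF. That share was highest without GM-CSF, where the share of the ribosomal protein genes was lowest, and the groups with GM-CSF overlapped. The 79 cytosolic ribosomal protein genes averaged 2.88% ± 0.0885 of counts with GM-CSF and DON, 2.88% ± 0.0624 with GM-CSF and 2.35% ± 0.0503 without GM-CSF (SD, n = 2 each), so the 2 groups with GM-CSF differed by less than their spread.

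**Figure D2:**
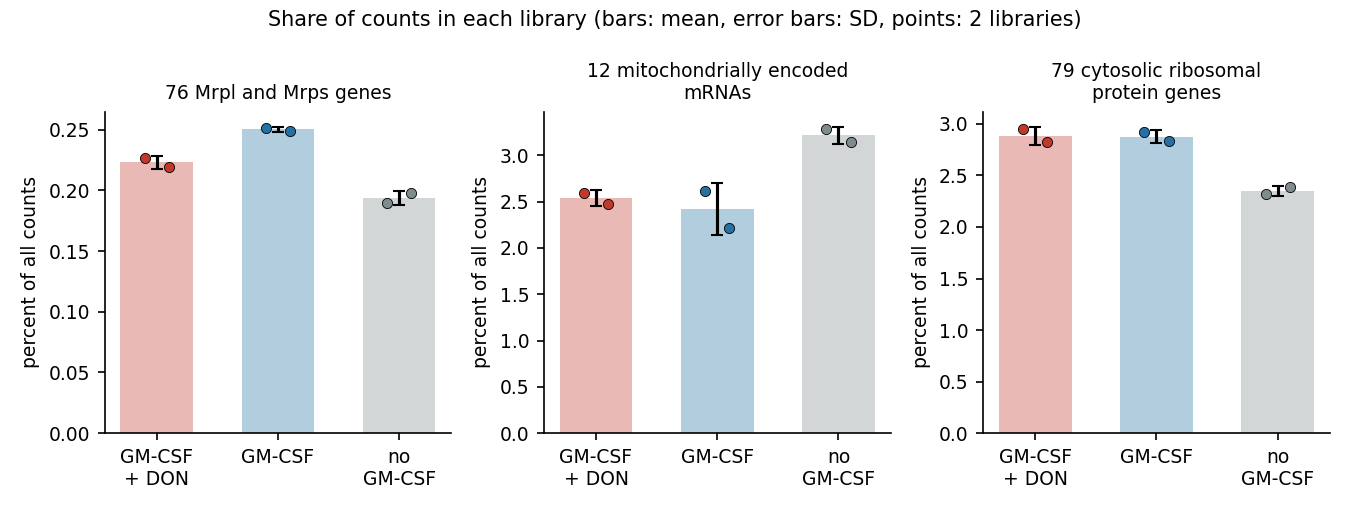
Percent of all counts in each library (vertical axes, each from 0) taken by the 76 Mrpl and Mrps genes, 12 mitochondrially encoded mRNAs and 79 cytosolic ribosomal protein genes. Bars are means of 2 libraries, error bars are SD and points are libraries. The Mrpl and Mrps genes hold 0.252% and 0.249% with GM-CSF and less in both other groups, while the mitochondrially encoded mRNAs hold 3.28% and 3.15% without GM-CSF and less in the others.

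Most members were higher with GM-CSF than without it, by a small amount. By the quasi-likelihood test of edgeR (p adjusted by the Benjamini-Hochberg method), 47 of 76 were called higher and 1 lower at an adjusted p under 0.05, while 27.5% of all genes tested were called higher and 29.3% lower. The members' median log2 fold change was 0.24, or 1.18-fold, against -0.02 for all genes, and their log2 fold changes ran between -0.19 and 0.67. Thus 61.8% of members were called higher, yet 5 of the 76 reached 1.5-fold, while 1209 of all 12340 genes tested were called higher by that much. The count of 47 depended on single libraries. It fell without either library with GM-CSF alone and without either library of no GM-CSF. Over the 9 alternatives that left out no single library it ran between 42 and 55.

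Mrpl35, the counterpart of bacterial L35 in the large subunit, had 25.9 and 25.9 CPM with GM-CSF and DON, 29.9 and 29.7 CPM with GM-CSF, and 17.7 and 19.9 CPM without GM-CSF. It showed the largest rise with GM-CSF of any member, a log2 fold change of 0.67 ± 0.07 (SE; adjusted p = 2.48e-05). Mrpl28, another large subunit protein with a bacterial counterpart, had 36.8 and 37.1 CPM with GM-CSF and DON, 51.4 and 48.4 CPM with GM-CSF, and 31.02 and 32.5 CPM without GM-CSF. Both libraries with GM-CSF alone stood above all 4 others, and the log2 fold change with GM-CSF was 0.65 ± 0.06 (adjusted p = 6.27e-06). Mrpl47, counterpart of bacterial L29, had 10.7 and 10.3 CPM with GM-CSF and DON, 17.9 and 15.7 CPM with GM-CSF, and 9.59 and 12.003 CPM without GM-CSF, and its log2 fold change with GM-CSF was 0.64 ± 0.11 (adjusted p = 0.000807). The libraries with GM-CSF alone were again the highest. Mrps5, a small subunit protein of the mRNA entry side in bacteria, had 27.2 and 26.9 CPM with GM-CSF and DON, 38.999 and 35.7 CPM with GM-CSF, and 24.8 and 24.9 CPM without GM-CSF, and rose by 0.59 ± 0.06 on the log2 scale (adjusted p = 2.7e-05). Mrpl51, a mitochondria-specific protein of the large subunit, had 43.5 and 40.3 CPM with GM-CSF and DON, 65.6 and 66.1 CPM with GM-CSF, and 45.8 and 43.02 CPM without GM-CSF. Its groups without GM-CSF and with DON overlapped, while both libraries with GM-CSF alone were higher, and the rise with GM-CSF was 0.57 ± 0.06 on the log2 scale (adjusted p = 1.69e-05). Mrpl18 (log2 fold change 0.62 ± 0.06) and Mrpl12 (0.56 ± 0.06) rose as well.

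The exception was Mrpl52, which had 27.97 and 26.1 CPM with GM-CSF and DON, 27.8 and 28.4 CPM with GM-CSF, and 31.2 and 32.8 CPM without GM-CSF. Its log2 fold change with GM-CSF was -0.19 ± 0.06 (adjusted p = 0.029), and the call was lost without GM-CSF replicate 1 (adjusted p = 0.131), without GM-CSF replicate 2 (0.0764) and without no GM-CSF replicate 2 (0.15). Without any of these 3 libraries the count of members called lower was 0.

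With GM-CSF and DON, more members were lower than were higher against GM-CSF alone. Here 35 of 76 were called lower and 10 higher, with 28.8% of all genes tested called in each direction. The share of members called higher was thus below that of all genes, and the share called lower above it. The median log2 fold change of members was -0.14, or 0.907-fold, against 0.01 for all genes, and values ran between -1.06 and 0.49. With upper-quartile scaling 24 members were lower and 13 higher, with a median of -0.066 against 0.085 for all genes. A fall of at least 1.5-fold was seen in 4 of the 76 members, Mrpl18, Mrpl47, Mrpl51 and Mrpl41. Of all 12340 genes tested, 1267 were called lower by that much. The counts depended on single libraries, since 23 members were called lower without GM-CSF with DON replicate 2, and 6 were called higher without GM-CSF with DON replicate 1 or without GM-CSF replicate 2. The GM-CSF libraries serve in this comparison and in the one before, so a high or low value in them enters both with opposite sign.

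Mrpl18, a protein of the central protuberance, a landmark of the large subunit, had 23.99 and 24.5 CPM with GM-CSF and DON, 51.4 and 49.7 CPM with GM-CSF, and 32.2 and 33.5 CPM without GM-CSF. The 3 groups did not overlap, and those with DON were lowest. With DON it fell by 1.06 ± 0.06 on the log2 scale (adjusted p = 3.76e-07), the largest change of any member in any comparison. A stretch of 10.1% of its annotated exon bases overlaps Tcp1, a chaperonin gene on the opposite strand. The strand setting of the counts is not given in the sources used here, so reads of the 2 genes cannot be told apart there. Mrpl41, a mitochondria-specific protein of the large subunit, had 21.6 and 18.7 CPM with GM-CSF and DON, 32.7 and 30.2 CPM with GM-CSF, and 30.8 and 29.9 CPM without GM-CSF. Unlike the genes above it was not called between GM-CSF and no GM-CSF (log2 fold change 0.05 ± 0.08, adjusted p = 0.589), and it fell with DON by 0.65 ± 0.08 (adjusted p = 7.74e-05). Both libraries with DON were below all 4 others.

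Mrpl51 had a log2 fold change with DON of -0.65 ± 0.06, adjusted p = 8.26e-06, from the levels given above. Mrpl20, whose bacterial counterpart is needed early in large subunit assembly and whose promoter with its E-box is printed above, had 34.9 and 35.5 CPM with GM-CSF and DON, 51.9 and 51.3 CPM with GM-CSF, and 39.3 and 43.9 CPM without GM-CSF. All 3 groups were separate, and the log2 fold change with DON was -0.55 ± 0.06, adjusted p = 4.36e-05. Mrpl11, at the base of the stalk that recruits translation factors, had 22.6 and 20.2 CPM with GM-CSF and DON, 31.2 and 30.3 CPM with GM-CSF, and 23.2 and 26.7 CPM without GM-CSF, and its log2 fold change with DON was -0.53 ± 0.08, adjusted p = 0.000399. Mrpl47 fell by 0.69 ± 0.12 in the counts (adjusted p = 0.000546), but this call did not hold in the authors' FPKM. There it had 13.6 and 11.7 FPKM with GM-CSF and DON, 15.5 and 14.0 FPKM with GM-CSF, and 9.21 and 11.8 FPKM without GM-CSF, and limma on log2(FPKM + 0.5) gave a difference with DON of -0.21 (adjusted p = 0.223). Of its exon bases, 24.2% overlap genes on the opposite strand, among them Actl6a and Ndufb5.

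The 10 members called higher with DON against GM-CSF were Mrpl1, Mrpl14, Mrpl23, Mrpl24, Mrpl32, Mrpl38, Mrpl43, Mrps6, Mrps30 and Mrps34. Mrpl14, which lies at the interface between the subunits in bacteria, had 28.01 and 24.8 CPM with GM-CSF and DON, 19.5 and 20.4 CPM with GM-CSF, and 21.3 and 21.2 CPM without GM-CSF. Its libraries with DON were the highest, and the log2 fold change was 0.41 ± 0.08, adjusted p = 0.00112. Mrpl1, counterpart of the bacterial protein of the mobile L1 stalk, had 25.5 and 25.6 CPM with GM-CSF and DON, 19.2 and 20.8 CPM with GM-CSF, and 21.000 and 21.1 CPM without GM-CSF and a log2 fold change with DON of 0.35 ± 0.07, adjusted p = 0.00144. Mrpl24, a protein at the exit of the tunnel, had 56.8 and 55.7 CPM with GM-CSF and DON, 45.2 and 43.5 CPM with GM-CSF, and 40.8 and 42.4 CPM without GM-CSF. The DON libraries were again above all 4 others, and the log2 fold change was 0.34 ± 0.05, adjusted p = 0.000312. Mrpl43, a mitochondria-specific large subunit protein with 2 ETS matches in the window printed above, had 44.8 and 44.97 CPM with GM-CSF and DON, 37.3 and 34.5 CPM with GM-CSF, and 33.1 and 33.3 CPM without GM-CSF and a log2 fold change of 0.32 ± 0.06, adjusted p = 0.000894. Mrps34, a mitochondria-specific small subunit protein, had 23.2 and 21.9 CPM with GM-CSF and DON, 17.4 and 17.2 CPM with GM-CSF, and 19.6 and 18.98 CPM without GM-CSF and a log2 fold change of 0.38 ± 0.07, adjusted p = 0.00104.

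Several of these calls are less certain than their adjusted p. Exon bases overlap genes on the opposite strand for 63.4% of Mrps34 (Mapk8ip3), 33.4% of Mrpl43 (Twnk, the mitochondrial DNA helicase), 26.3% of Mrpl24 (Rrnad1) and 11.2% of Mrpl14 (Tmem63b). In Mrps34, 37.0% of exon bases also overlap Nme3 on the same strand. Of the exon bases of Mrps6, 19.9% overlap Slc5a3 and Gm49711 on the same strand, and of those of Mrps30, 9.3% overlap B430218F22Rik on the opposite strand. No overlap was annotated for Mrpl1. The call of Mrpl32 was lost without any 1 of the 4 libraries compared (adjusted p 0.0711 without GM-CSF with DON replicate 1, 0.0959 without its replicate 2, 0.0844 without GM-CSF replicate 1 and 0.108 without its replicate 2). Mrps30 was lost without GM-CSF with DON replicate 2 (0.0699), GM-CSF replicate 1 (0.0782) or GM-CSF replicate 2 (0.0612). Mrpl38 was lost without GM-CSF with DON replicate 1 (0.0702) or GM-CSF replicate 1 (0.0546), and Mrps6 without GM-CSF with DON replicate 1 (0.116) or GM-CSF replicate 2 (0.0985).

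Mrpl23 needs a separate account. It had 471 counts over the 6 libraries, while Mrpl23-ps1, named as its pseudogene and therefore not a member, had 6538, or 97.6 FPKM on average. Reads of near-identical copies can be counted to either, so the values of Mrpl23 are uncertain. Alone, Mrpl23 had 3.01 and 3.10 CPM with GM-CSF and DON, 2.02 and 2.35 CPM with GM-CSF, and 2.28 and 2.11 CPM without GM-CSF, with a log2 fold change with DON against GM-CSF of 0.49 ± 0.18, adjusted p = 0.0456. Summing the counts of both, an alternative chosen after seeing the data, gave 0.24 (adjusted p = 0.0103). The call of Mrpl23 alone was lost without each of 5 libraries, with adjusted p of 0.11 without GM-CSF with DON replicate 1, 0.141 without its replicate 2, 0.205 without GM-CSF replicate 1, 0.0625 without its replicate 2 and 0.0539 without no GM-CSF replicate 1.

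**Figure D3:**
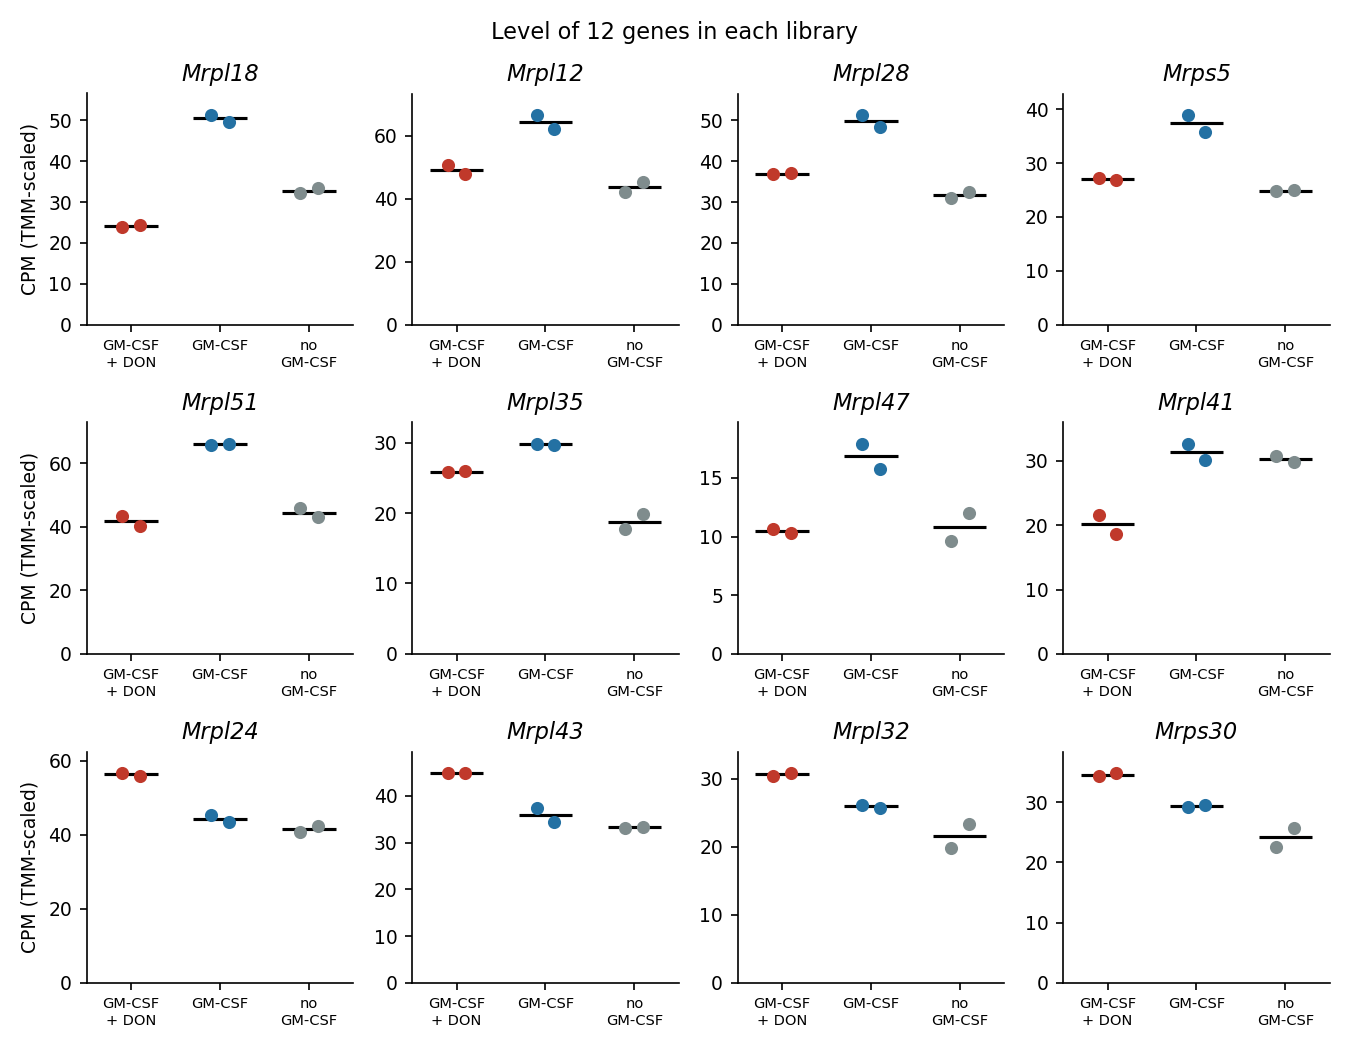
TMM-scaled CPM (vertical axes, each from 0) of 12 genes in each library, with a point per library and a line at the mean of 2 libraries. In Mrpl18, Mrpl12, Mrpl28, Mrps5, Mrpl51 and Mrpl47 the libraries with GM-CSF alone are highest, Mrpl41 is lowest with DON at 21.6 and 18.7 CPM, and Mrpl24, Mrpl43, Mrpl32 and Mrps30 are highest with DON.

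Relative to no GM-CSF, the group with GM-CSF and DON had 31 members called higher and 7 lower, against 27.2% of all genes tested higher and 28.4% lower. The members' median log2 fold change was 0.12, or 1.08-fold, against 0.01 for all genes, with values between -0.59 and 0.52. No member rose by 1.5-fold, while 1275 of all 12340 genes tested were called higher by that much. Without GM-CSF with DON replicate 1 the count called higher was 20 and the median was 0.06, and the count called lower was 4 without GM-CSF with DON replicate 2 or without no GM-CSF replicate 2. This comparison shares libraries with each of the others.

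Mrps30 showed the largest rise, and despite its name its protein is part of the large subunit. It had 34.2 and 34.9 CPM with GM-CSF and DON, 29.2 and 29.5 CPM with GM-CSF, and 22.6 and 25.7 CPM without GM-CSF, and the log2 fold change was 0.52 ± 0.07, adjusted p = 0.000154. The 3 groups were separate and DON was highest. Mrpl32, a large subunit protein that is cut by a mitochondrial protease before assembly, had 30.4 and 30.9 CPM with GM-CSF and DON, 26.2 and 25.8 CPM with GM-CSF, and 19.8 and 23.3 CPM without GM-CSF and a log2 fold change of 0.51 ± 0.08, adjusted p = 0.000373. Mrpl39, a mitochondria-specific large subunit protein, had 36.3 and 35.3 CPM with GM-CSF and DON, 33.7 and 30.4 CPM with GM-CSF, and 25.1 and 26.3 CPM without GM-CSF. Its 2 groups with GM-CSF lay above the group without it, and the log2 fold change was 0.48 ± 0.07, adjusted p = 0.0002. Mrpl38, of the central protuberance, had 39.5 and 36.1 CPM with GM-CSF and DON, 31.3 and 31.9 CPM with GM-CSF, and 26.2 and 28.3 CPM without GM-CSF and a log2 fold change of 0.47 ± 0.07, adjusted p = 0.000212.

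The 7 members lower with DON than without GM-CSF were Mrpl41, Mrpl18, Mrpl33, Mrpl20, Mrpl52, Mrpl11 and Mrps21. Mrpl41 (log2 fold change -0.59 ± 0.08, adjusted p = 0.000139) and Mrpl18 (-0.44 ± 0.06, adjusted p = 0.00013) kept their calls in every alternative run. Mrpl33, counterpart of bacterial L33, had 20.4 and 22.3 CPM with GM-CSF and DON, 30.5 and 26.8 CPM with GM-CSF, and 26.9 and 26.1 CPM without GM-CSF. It was not called with GM-CSF against no GM-CSF (0.12 ± 0.08, adjusted p = 0.239) and was lower with DON than in either other group, with log2 fold changes of -0.42 ± 0.08 against GM-CSF and -0.31 ± 0.08 against no GM-CSF. Mrps21, whose promoter holds the NRF1 letters, had 36.7 and 34.1 CPM with GM-CSF and DON, 44.5 and 41.5 CPM with GM-CSF, and 39.3 and 42.04 CPM without GM-CSF and a log2 fold change of -0.20 ± 0.07, adjusted p = 0.0246 against no GM-CSF. Without 1 library, the calls lost were Mrpl11 (adjusted p 0.274 without GM-CSF with DON replicate 2, 0.07 without GM-CSF replicate 1, 0.0712 without its replicate 2 and 0.306 without no GM-CSF replicate 2), Mrps21 (0.162 without GM-CSF with DON replicate 2 and 0.133 without no GM-CSF replicate 2), Mrpl20 (0.0529 without GM-CSF with DON replicate 1 and 0.0872 without no GM-CSF replicate 2), Mrpl33 (0.071 without GM-CSF with DON replicate 1) and Mrpl52 (0.0701 without GM-CSF with DON replicate 2).

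**Figure D4:**
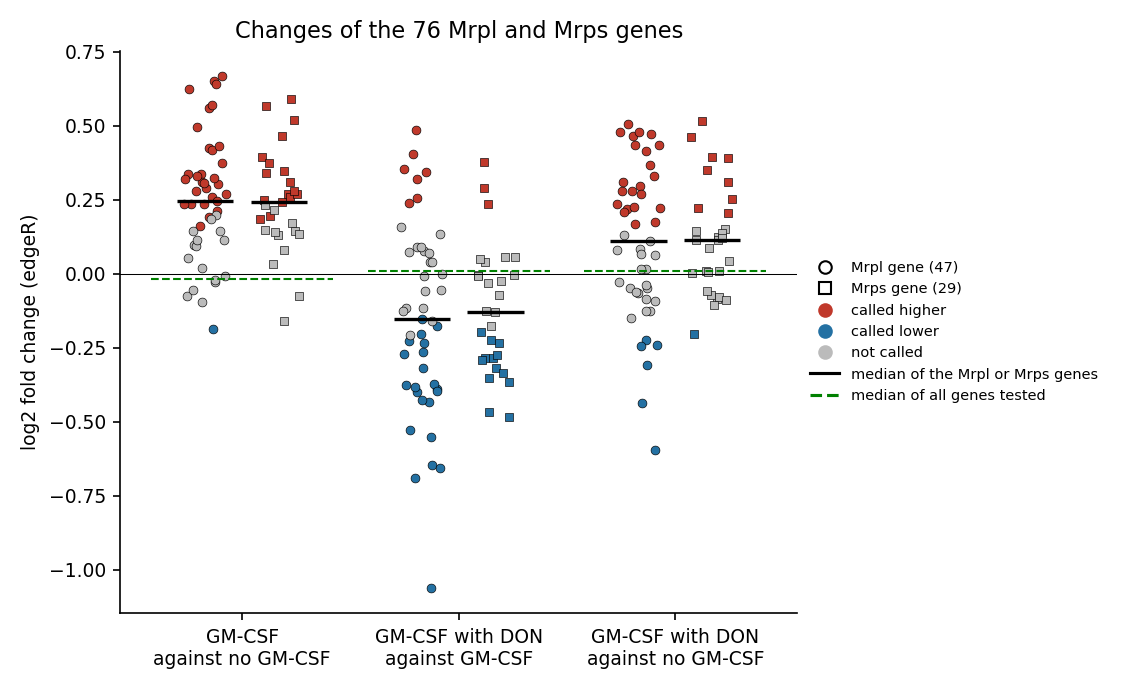
Log2 fold change (edgeR, vertical axis) of the 76 genes in the 3 comparisons, with circles for 47 Mrpl genes and squares for 29 Mrps genes, coloured by call. Solid lines are medians of the Mrpl or Mrps genes and dashed lines medians of all genes tested. The members lie mostly above 0 with GM-CSF (median 0.24), mostly below 0 with DON against GM-CSF (median -0.14), and between these with DON against no GM-CSF (median 0.12).

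Mrpl and Mrps genes were also counted apart. For these counts, the background over all genes tested was 27.5% called higher and 29.3% lower with GM-CSF. With DON against GM-CSF it was 28.8% in each direction. With GM-CSF, 30 of 47 Mrpl genes were called higher and 1 lower (median log2 fold change 0.25), and 17 of 29 Mrps genes higher and 0 lower (0.24). With DON against GM-CSF, 7 Mrpl genes were called higher and 22 lower (-0.15), and 3 Mrps genes higher and 13 lower (-0.13). Among proteins with a bacterial counterpart, 22 of 30 in the large subunit and 10 of 16 in the small subunit were called higher with GM-CSF, none of them lower. Mitochondria-specific proteins were called higher in 8 of 17 cases in the large subunit, with 1 lower, and in 6 of 10 in the small subunit, with 0 lower. Against GM-CSF alone, with DON the bacterial-type proteins had 14 of 30 lower and 5 higher in the large subunit and 9 of 16 lower and 1 higher in the small subunit. The mitochondria-specific ones had 8 of 17 lower and 2 higher, and 4 of 10 lower and 1 higher. No difference between these classes was tested. Mrps36 is now known as a subunit of the oxoglutarate dehydrogenase complex and not of the ribosome. It had 43.4 and 41.6 CPM with GM-CSF and DON, 46.5 and 46.2 CPM with GM-CSF, and 42.8 and 41.7 CPM without GM-CSF and was called in no comparison.

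Some members build named sites of the large subunit, and no difference between the sites was tested. The stalk, which recruits the translation factors, is built by Mrpl10, Mrpl11, Mrpl12, Mrpl53 and Mrpl54. Of these 5, 3 were called higher with GM-CSF and 2 lower with DON against GM-CSF. Mrpl12, which also binds the mitochondrial RNA polymerase, had 50.8 and 47.9 CPM with GM-CSF and DON, 66.8 and 62.2 CPM with GM-CSF, and 42.1 and 45.4 CPM without GM-CSF. The GM-CSF libraries were the highest, with a log2 fold change of 0.56 ± 0.06, adjusted p = 3.26e-05 with GM-CSF and of -0.39 ± 0.06, adjusted p = 0.000416 with DON against GM-CSF. Mrpl53, of whose exon bases 88.0% overlap Gm42688 on the same strand, was higher with GM-CSF (0.43 ± 0.10, adjusted p = 0.00429) and was not called with DON against GM-CSF (-0.16 ± 0.10, adjusted p = 0.193). Mrpl11 was higher with GM-CSF (0.30 ± 0.08, adjusted p = 0.00964), a call lost without GM-CSF replicate 1 (adjusted p = 0.0644) or no GM-CSF replicate 1 (0.071). Mrpl10 and Mrpl54 were not called in either, with log2 fold changes of 0.10 and 0.02 with GM-CSF.

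In the central protuberance, 6 of 7 genes were called higher with GM-CSF, and 4 were lower and 1 higher with DON against GM-CSF. Mrpl46 had 14.9 and 13.1 CPM with GM-CSF and DON, 18.5 and 17.9 CPM with GM-CSF, and 12.2 and 13.7 CPM without GM-CSF, with a log2 fold change of 0.49 ± 0.09, adjusted p = 0.00112 with GM-CSF. Its libraries with GM-CSF alone were highest, and with DON it was lower, with a log2 fold change of -0.38 ± 0.09, adjusted p = 0.00511, a call lost without GM-CSF with DON replicate 2 (adjusted p = 0.0512). Mrpl55 was lower with DON (-0.40 ± 0.08, adjusted p = 0.00133), and Mrpl40 was too (-0.23 ± 0.06, adjusted p = 0.0119), the call of Mrpl40 being lost without GM-CSF with DON replicate 2 (0.0944) or GM-CSF replicate 1 (0.0548). Mrpl38 went the other way with DON (0.26 ± 0.07, adjusted p = 0.00778), with the libraries that decide it named above. The calls with GM-CSF of Mrpl38, Mrpl40 and Mrpl55 were lost without GM-CSF replicate 1 (0.0694, 0.149 and 0.063), its replicate 2 (0.0934, 0.132 and 0.0683) or no GM-CSF replicate 1 (0.137, 0.283 and 0.106), that of Mrpl40 also without either library with DON (0.056 and 0.0565), and that of Mrpl27 without GM-CSF replicate 2 (0.105) or no GM-CSF replicate 2 (0.0518). Mrpl48 was not called in any comparison.

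For the peptide exit tunnel 4 genes were listed, Mrpl22, Mrpl23, Mrpl24 and Mrpl45, and the list may not hold every protein of this site. None of the 4 was called with GM-CSF against no GM-CSF (log2 fold changes 0.20, -0.01, 0.09 and 0.19). Outside this list, Mrpl4 and Mrpl47 were called higher in that comparison (0.32 and 0.64), as were 30 of the 47 Mrpl genes, with 1 lower. Of the 4 listed, 2 were higher with DON against GM-CSF, Mrpl23 and Mrpl24, and all 4 were with DON against no GM-CSF. In the latter, the calls other than that of Mrpl24 depended on single libraries. Outside the list, Mrpl47 was called lower with DON against GM-CSF (-0.69) and was not called against no GM-CSF (-0.05). Mrpl4 was not called with DON against GM-CSF (-0.12) and was called higher against no GM-CSF (0.21). The call of Mrpl23 against no GM-CSF was lost without any 1 of the 6 libraries (adjusted p between 0.0546 and 0.169). Mrpl45, which helps hold the ribosome at the inner membrane and whose promoter holds the NRF1 letters at 2 places, had 40.04 and 33.6 CPM with GM-CSF and DON, 34.7 and 34.3 CPM with GM-CSF, and 31.02 and 29.6 CPM without GM-CSF. Its 2 libraries with DON spread over the range of the GM-CSF libraries, and the call against no GM-CSF (0.28 ± 0.08, adjusted p = 0.0145) was lost without GM-CSF with DON replicate 1 (adjusted p = 0.128) or no GM-CSF replicate 2 (0.0537). Mrpl22 (0.24 ± 0.08, adjusted p = 0.0333) was lost without GM-CSF with DON replicate 1 (0.174), GM-CSF replicate 1 (0.0542), its replicate 2 (0.054) or no GM-CSF replicate 1 (0.237). Mrpl24 (0.44 ± 0.05, adjusted p = 6.41e-05) kept its call without each library.

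**Figure D5:**
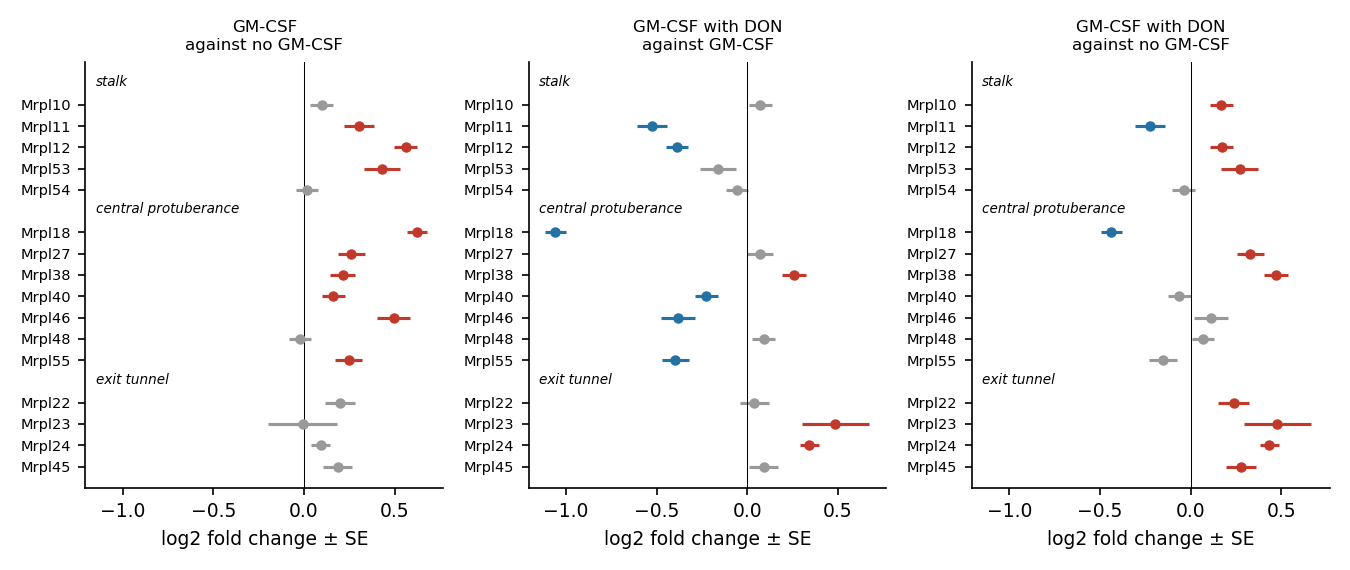
Log2 fold change ± SE (horizontal axes) of the genes of the stalk, central protuberance and exit tunnel in the 3 comparisons, red where called higher, blue where called lower and grey where not called. Mrpl18 stands apart at -1.06 with DON against GM-CSF. The exit tunnel genes listed here are grey with GM-CSF against no GM-CSF and red with DON against no GM-CSF. In the latter, the calls other than that of Mrpl24 depended on single libraries.

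Other proteins of the same ribosome carry names outside the Mrpl and Mrps series. For this list and those that follow, the background over all genes tested was 27.5% called higher and 29.3% lower with GM-CSF, and 28.8% in each direction with DON against GM-CSF. With GM-CSF, 5 of these 7 were called higher and 1 lower, and with DON against GM-CSF 2 were higher and 1 lower. Ptcd3, a small subunit protein with RNA-binding repeats, had 20.7 and 21.3 CPM with GM-CSF and DON, 32.01 and 29.7 CPM with GM-CSF, and 21.2 and 21.8 CPM without GM-CSF. It was highest with GM-CSF alone, with a log2 fold change of 0.52 ± 0.07, adjusted p = 8.82e-05 with GM-CSF and -0.55 ± 0.07, adjusted p = 6.65e-05 with DON against GM-CSF. Ict1, a release factor built into the large subunit, was higher with DON than with GM-CSF (0.32 ± 0.07, adjusted p = 0.00209). Dap3, a GTP-binding protein of the small subunit, was higher with GM-CSF (0.32 ± 0.06, adjusted p = 0.00138) and was not called with DON against GM-CSF (0.02 ± 0.06, adjusted p = 0.818). Aurkaip1, another small subunit protein, was the 1 called lower with GM-CSF (-0.18 ± 0.05, adjusted p = 0.0186), a call lost without GM-CSF replicate 2 (adjusted p = 0.142) or no GM-CSF replicate 2 (0.0837). It was higher with DON against GM-CSF (0.18 ± 0.05, adjusted p = 0.0177), lost without GM-CSF with DON replicate 1 (0.12) or GM-CSF replicate 2 (0.139). The count of 2 higher was then 1, and the count of 5 higher with GM-CSF was 3 without no GM-CSF replicate 1.

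Factors that work on the ribosome were called in both directions. Of 15 translation factors, 6 were called higher and 2 lower with GM-CSF, and 4 higher and 3 lower with DON against GM-CSF. The shares with DON, 26.7% higher and 20% lower, were near those of all genes. The elongation factor genes Gfm1 and Tufm were highest with GM-CSF alone. Gfm1 had 60.6 and 61.4 CPM with GM-CSF and DON, 82.99 and 84.9 CPM with GM-CSF, and 57.4 and 59.03 CPM without GM-CSF, with log2 fold changes of 0.53 ± 0.05, adjusted p = 7.79e-06 with GM-CSF and -0.46 ± 0.05, adjusted p = 2.39e-05 with DON against GM-CSF. Tufm had 0.34 ± 0.05 (adjusted p = 0.000127) and -0.28 ± 0.05 (adjusted p = 0.000463) in the same comparisons. Oxa1l, the insertase that receives new chains at the exit tunnel, had 96.2 and 97.5 CPM with GM-CSF and DON, 49.6 and 48.4 CPM with GM-CSF, and 65.4 and 64.3 CPM without GM-CSF. It was lowest with GM-CSF alone and highest with DON, with log2 fold changes of -0.40 ± 0.05, adjusted p = 5.54e-05 with GM-CSF and 0.98 ± 0.05, adjusted p = 1.93e-07 with DON against GM-CSF. Mrrf, the ribosome recycling factor, was higher with DON against GM-CSF (0.50 ± 0.07, adjusted p = 0.000225) and was not called with GM-CSF against no GM-CSF (0.11 ± 0.08, adjusted p = 0.238). The count of 4 higher was 2 without GM-CSF with DON replicate 1 or without either GM-CSF library.

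Of 24 measured genes for assembly of the mitochondrial ribosome and modification of its rRNA, 3 were called higher and 2 lower with GM-CSF, and 9 higher and 2 lower with DON against GM-CSF. With upper-quartile scaling these counts were 2 higher and 3 lower with GM-CSF, and 9 higher and 0 lower with DON. The assembly factor gene Mettl17 had 36.8 and 32.2 CPM with GM-CSF and DON, 21.98 and 24.3 CPM with GM-CSF, and 11.01 and 12.4 CPM without GM-CSF. Its groups were separate, with log2 fold changes of 0.98 ± 0.10, adjusted p = 1.5e-05 with GM-CSF and 0.57 ± 0.09, adjusted p = 0.000335 with DON against GM-CSF. Ngrn, needed for the large rRNA of mitochondria, had 13.6 and 13.5 CPM with GM-CSF and DON, 6.78 and 6.45 CPM with GM-CSF, and 7.19 and 6.57 CPM without GM-CSF, and rose with DON against GM-CSF by 1.03 ± 0.10 on the log2 scale (adjusted p = 1.14e-05). For Mterfd2, which works with an rRNA methyltransferase, the log2 fold change with DON against GM-CSF was 0.89 ± 0.10, adjusted p = 3.07e-05. These 3 stood at their highest with DON, unlike most ribosomal protein genes. The count of 2 lower with GM-CSF was 1 without any 1 of the libraries compared. In the DON comparison, the count of 9 higher was 4 without GM-CSF replicate 1, and the count of 2 lower was 0 without any 1 of GM-CSF with DON replicate 2 and both GM-CSF libraries and 1 without either library of no GM-CSF.

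Among 17 mitochondrial aminoacyl-tRNA synthetase genes, 6 were called higher and 2 lower with GM-CSF, and 6 higher and 4 lower with DON against GM-CSF. These shares with DON, 35.3% higher and 23.5% lower, were close to those of all genes. Wars2, the tryptophan enzyme, had 16.8 and 16.8 CPM with GM-CSF and DON, 6.95 and 7.52 CPM with GM-CSF, and 7.96 and 7.99 CPM without GM-CSF, with a log2 fold change of 1.22 ± 0.09, adjusted p = 2.05e-06 with DON against GM-CSF. Tars2, the threonine enzyme, had 16.6 and 15.7 CPM with GM-CSF and DON, 24.5 and 23.8 CPM with GM-CSF, and 17.2 and 17.5 CPM without GM-CSF, with log2 fold changes of 0.48 ± 0.07, adjusted p = 0.000195 with GM-CSF and -0.59 ± 0.07, adjusted p = 5.76e-05 with DON against GM-CSF. The 2 enzymes moved apart with DON, Wars2 to its highest level and Tars2 to its lowest. The count of 2 lower with GM-CSF was 1 without GM-CSF replicate 1.

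Of 9 measured genes for mitochondrial transcription and DNA maintenance, 3 were called higher and 1 lower with GM-CSF, and 2 higher and 1 lower with DON against GM-CSF. The shares called higher, 33.3% with GM-CSF and 22.2% with DON, were near those of all genes. Scaled by DESeq2 size factors, 2 were higher and 2 lower with DON. Polg, the polymerase of mitochondrial DNA, was lower in both, with log2 fold changes of -0.52 ± 0.06, adjusted p = 5.69e-05 and -0.26 ± 0.07, adjusted p = 0.00679. It had 17.8 and 17.2 CPM with GM-CSF and DON, 21.1 and 20.8 CPM with GM-CSF, and 29.9 and 30.5 CPM without GM-CSF. Tfam, which packs that DNA and starts its transcription, was higher with GM-CSF (0.26 ± 0.07, adjusted p = 0.00799) and was not called with DON against GM-CSF (0.06 ± 0.07, adjusted p = 0.505). In that comparison the count of 2 higher was 0 without GM-CSF with DON replicate 1 and 1 without GM-CSF replicate 2, and the count of 1 lower was 2 without either library of no GM-CSF.

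The 12 measured mRNAs of the mitochondrial genome, the ribosome's own templates, were called lower with GM-CSF in 11 cases and higher in 1. With DON against GM-CSF, 3 were lower and 1 higher, and with DON against no GM-CSF all 12 were lower. The cytochrome oxidase gene mt-Co1 had 8459 and 7875 CPM with GM-CSF and DON, 6435 and 5433 CPM with GM-CSF, and 10655 and 9661 CPM without GM-CSF, with a log2 fold change of -0.78 ± 0.07, adjusted p = 1.17e-05 with GM-CSF and 0.46 ± 0.07, adjusted p = 0.000431 with DON against GM-CSF. The cytochrome b gene mt-Cytb had 1071 and 993 CPM with GM-CSF and DON, 1954 and 1605 CPM with GM-CSF, and 2656 and 2357 CPM without GM-CSF, and was lower with DON than with GM-CSF, with a log2 fold change of -0.79 ± 0.09, adjusted p = 3.36e-05. It was lowest with DON, whereas mt-Co1 was lowest with GM-CSF alone. The 1 called higher with GM-CSF, mt-Nd3 (0.16 ± 0.05, adjusted p = 0.0109), lost the call without GM-CSF replicate 1 (adjusted p = 0.0828) or no GM-CSF replicate 1 (0.058). The counts with DON against GM-CSF turned on the GM-CSF libraries and the scaling, with 7 higher and 2 lower without GM-CSF replicate 1, 1 higher and 5 lower without GM-CSF replicate 2, and 3 higher and 2 lower with upper-quartile scaling.

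Among 8 measured regulators of mitochondrial biogenesis, 4 were called higher and 1 lower with GM-CSF, and 0 higher and 4 lower with DON against GM-CSF. Ppargc1b, a transcriptional coactivator of mitochondrial genes, had 3.64 and 4.58 CPM with GM-CSF and DON, 10.8 and 10.98 CPM with GM-CSF, and 4.15 and 4.49 CPM without GM-CSF. The libraries with GM-CSF alone were the highest, with a log2 fold change of 1.33 ± 0.13, adjusted p = 1.04e-05 with GM-CSF and -1.40 ± 0.13, adjusted p = 1.03e-05 with DON against GM-CSF. Nrf1, whose letters were searched in the promoters above, had 17.8 and 18.2 CPM with GM-CSF and DON, 23.5 and 24.4 CPM with GM-CSF, and 17.5 and 18.6 CPM without GM-CSF, with log2 fold changes of 0.40 ± 0.07, adjusted p = 0.000659 and -0.41 ± 0.07, adjusted p = 0.000656 in the same comparisons. Gabpa, the DNA-binding subunit of the ETS-family factor, had 51.02 and 50.8 CPM with GM-CSF and DON, 58.3 and 61.3 CPM with GM-CSF, and 52.2 and 50.8 CPM without GM-CSF, with 0.22 ± 0.05, adjusted p = 0.00496 and -0.23 ± 0.05, adjusted p = 0.00336. Its partner Gabpb1 was higher with GM-CSF (0.25 ± 0.07, adjusted p = 0.0134), a call lost without GM-CSF replicate 1 (0.108) or no GM-CSF replicate 1 (0.0732). Esrra, a nuclear receptor acting with these coactivators, was lower with GM-CSF (-0.40 ± 0.07, adjusted p = 0.000615). Myc was lower with DON against GM-CSF (-0.58 ± 0.06, adjusted p = 2.64e-05) and was not called with GM-CSF against no GM-CSF (0.14 ± 0.06, adjusted p = 0.0734). Yy1 and Pprc1 were called in neither, with log2 fold changes with DON against GM-CSF of -0.00 and -0.10. Ppargc1b, Nrf1 and Gabpa thus had their highest level with GM-CSF alone, while Esrra was lower with GM-CSF than without it. A link between these regulators and the ribosomal protein genes was not tested.

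Accounting for every member, 66 of the 76 were called in at least 1 comparison. In single comparisons, between 27.2% and 28.8% of all genes tested were called higher and between 28.4% and 29.3% lower. The share of all genes called in at least 1 comparison was not counted, so the 66 cannot be read as a trait of the members. The 10 called in none were Mrpl17, Mrpl44, Mrpl48, Mrpl54, Mrps2, Mrps9, Mrps14, Mrps18a, Mrps33 and Mrps36. The median SE of a member's log2 fold change was 0.07 in each comparison, with 2 libraries in each group.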

How the data were processed

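RNA of cultured alveolar macrophages had been sequenced in 6 libraries, 2 in each of 3 groups, on day 2. The deposited table of counts held whole-number read counts per gene symbol, made by the authors, and a second deposited table held FPKM made by the authors. Per the submitters' processing notes, the tools were DESeq2 1.28.1, Subread 1.4.6, featureCounts and STAR 2.6.0a, with the build mm10. The sources used here do not give what each did, nor the annotation, strand setting or filters. Counts and FPKM did not always change alike between libraries, as in Mrpl47.

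The counts were analysed with edgeR 4.0.16 in R 4.3.3. After a low-count filter (filterByExpr, minimum count 10), 12340 genes remained, and library sizes were scaled by TMM. All 6 libraries entered a single fit with a coefficient for each group. Contrasts were tested two-sided by edgeR's quasi-likelihood F-test, p-values were adjusted by Benjamini-Hochberg over the 12340 genes, and a gene was called at an adjusted p under 0.05. SE is the log2 fold change divided by the square root of the F statistic. Replicates differed by more than sampling noise (chi-square per degree of freedom 4.50 with GM-CSF and DON, 5.29 with GM-CSF and 8.46 without GM-CSF). As the labels do not call the replicates separate cultures or animals, p-values cover only the spread between these libraries, which may be technical. Alternatives used limma 3.58.1 and DESeq2 1.42.0, and figures were drawn with matplotlib 3.10.9 in Python 3.11.15.

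The members, the gene lists and the rule for named genes were chosen with earlier results of these data known. In each comparison the rule named the 6 members with the largest and the 6 with the smallest log2 fold change, members called against the majority, members of 3 named sites, those with a misleading name, and the 5 highest and 5 lowest by FPKM. From each pathway list it took up to 3 genes with the smallest adjusted p per comparison, and every regulator. Members named only as called in no comparison were chosen after their values were seen.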

Additional observations from a re-analysis of the deposited data

How the results depend on the processing

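No called log2 fold change of a named gene and no median over the members changed sign in any alternative, although the balance of higher to lower calls turned for the mitochondrially encoded mRNAs, as given above. The alternatives were other scalings (DESeq2 size factors, upper quartile), DESeq2's Wald test, 2 other low-count filters, fits of the 2 groups compared alone, limma on log2 FPKM, the replicate block and leaving out each library. With upper-quartile scaling, 2 members were called lower with GM-CSF against no GM-CSF and the median log2 fold change was 0.21, and with DON against GM-CSF the median was -0.066, against 0.085 for all genes. DESeq2's Wald test called 0 members lower with GM-CSF. The 9 alternatives that left out no single library gave between 42 and 55 members called higher with GM-CSF. Leaving out 1 library gave a median log2 fold change with GM-CSF between 0.22 and 0.27. It also changed the count called higher, which fell without either library with GM-CSF alone or of no GM-CSF. With DON against GM-CSF it gave between 6 and 10 higher and between 23 and 34 lower. With DON against no GM-CSF it gave between 20 and 31 higher, between 4 and 7 lower and a median between 0.062 and 0.13. The cause of these changes was not tested, but a fit without a library has fewer samples. For the lists, DESeq2's Wald test gave 2 higher and 2 lower among translation factors, 5 higher and 1 lower among assembly genes, 3 higher among synthetases and 1 higher among transcription and DNA maintenance genes, all with DON against GM-CSF, and with GM-CSF it gave 2 higher and 1 lower among assembly genes and 1 lower among synthetases. The limma fit with 0.5 added to FPKM gave 0 lower among assembly genes and 1 higher among transcription and DNA maintenance genes and among ribosome proteins of other names with DON against GM-CSF, and with GM-CSF 1 higher among transcription and DNA maintenance genes and 0 lower among ribosome proteins of other names; with 0.1 added, 2 translation factors were higher with DON against GM-CSF. Fits of the 2 groups alone gave 5 assembly genes higher with GM-CSF, and with DON against GM-CSF 1 assembly gene lower and 2 transcription and DNA maintenance genes lower. Both other low-count filters and the replicate block also gave 1 assembly gene lower with DON, and the block 2 mitochondrially encoded mRNAs higher. Whether replicate numbers pair the samples is not known from the labels. Over 8164 genes, the differences between replicates 1 and 2 correlated at 0.07 between GM-CSF with DON and GM-CSF. They correlated at -0.31 between GM-CSF with DON and no GM-CSF, and at -0.05 between GM-CSF and no GM-CSF. These values show no clear positive correlation by number and do not settle the pairing. With the replicate block, 46 members were called higher and 1 lower with GM-CSF, 9 higher and 34 lower with DON against GM-CSF, and 27 higher and 6 lower with DON against no GM-CSF. With crossed numbers in the block, chosen after seeing the data, the last comparison had 31 higher and 7 lower. With 2 libraries a group, the median SE of a member's log2 fold change was 0.07.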
